A study of Mus musculus with 16 samples.

Results

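The genes of the basement membrane core were read in tdTomato-positive lung cells of 16 mice. They are 10 of the 49452 genes in the tables, and they were taken by symbol: the laminin alpha chains *Lama2*, *Lama4* and *Lama5*, the beta chains *Lamb1* and *Lamb2*, the gamma chain *Lamc1*, the nidogens *Nid1* and *Nid2*, and the heparan sulfate proteoglycans perlecan (*Hspg2*) and agrin (*Agrn*). All 10 were found, each with 1 Ensembl gene and 1 row in every mouse. RNA was sequenced from 4 groups of 4 mice, Acta2-CreERT2; tdTomatoflox (*Acta2-tdT*) and Pdgfra-CreERT2; tdTomatoflox (*Pdgfra-tdT*) animals given saline or bleomycin, all on the C57BL6 background, 11 weeks old and killed 14 days after the agent. Tamoxifen, which turns the fluorescent label on in cells that use the *Acta2* or *Pdgfra* promoter at that time, was given to both saline and bleomycin mice. *Acta2-tdT* mice received it in food at 400 mg/kg from day 5 after the agent, so that cells which switched *Acta2* on during injury were labeled too. *Pdgfra-tdT* mice received 5 injections of 3 mg at 6 weeks of age, before the agent, so that the lines differ in the promoter and in the time and route of labeling at once. The question of the design is which genes separate the labeled cells of the lines, and which of them respond to bleomycin, an agent that injures the lung and is followed by fibrosis.

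Basement membranes are thin sheets of matrix under epithelium and endothelium and around smooth muscle cells and pericytes. Laminins are trimers of an alpha, a beta and a gamma chain that assemble into a network on the cell surface, and collagen IV forms a second network. Nidogens and perlecan join the networks to each other, and integrins, dystroglycan and other receptors hold them to cells. In the lung *Lama5* and *Lama4* are chains of the epithelial and vascular basement membrane, whereas *Lama2* is best known from muscle and nerve.

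Levels are given as FPKM, a count of fragments corrected for gene length and sequencing depth that the authors computed separately in each mouse. The sum of FPKM over protein-coding genes of the nuclear genome was not the same across mice. It was 35602 to 57788 in *Acta2-tdT* saline, 231058 to 463127 in *Acta2-tdT* bleomycin, 29964 to 59840 in *Pdgfra-tdT* saline and 28512 to 137952 in *Pdgfra-tdT* bleomycin mice. Each comparison is therefore given as deposited and after scaling all mice to the same sum (49122, the median of the 16). Counts of reads were not used here, and the depth of each mouse is unknown. As a gauge of the lowest readable level, the median of 1445 olfactory and vomeronasal receptor genes, which lung cells are not known to use, was 0.323 to 0.332 FPKM in *Acta2-tdT* saline, 0.0134 to 0.122 in *Acta2-tdT* bleomycin, 0.176 to 0.336 in *Pdgfra-tdT* saline and 0.0920 to 0.317 in *Pdgfra-tdT* bleomycin mice. In such bulk samples, fewer cells of a type and less RNA per cell cannot be told apart.

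The labels were checked against the genes that drive them. *Acta2*, the smooth muscle actin, was at 139 to 314 FPKM in *Acta2-tdT* saline and 1229 to 3211 FPKM in *Acta2-tdT* bleomycin mice, against 2.59 to 11.0 and 0.831 to 19.4 FPKM in the *Pdgfra-tdT* mice. *Pdgfra* was at 2.14 to 3.82 FPKM in its own line with saline, above the 0.273 to 0.562 FPKM of *Acta2-tdT* saline mice. With bleomycin, as deposited, it was at 0.977 to 2.45 FPKM in its own line and 2.49 to 11.9 in *Acta2-tdT* mice. Every *Acta2-tdT* mouse was thus above every *Pdgfra-tdT* mouse for the gene of the other label. After scaling it was at 0.873 to 2.33 and 0.529 to 1.26, and the lines overlapped. Among *Pdgfra-tdT* mice 2 stood apart. The summed FPKM of 10 endothelial markers was 580 in saline mouse 3 and 1372 in bleomycin mouse 5, against 6.42 to 15.4 in the other saline and 6.37 to 156 in the other bleomycin mice, and results that rest on these mice are given with and without them. Fibroblast markers summed to 21.5 to 45.2 FPKM with saline and 1082 to 3252 with bleomycin in *Acta2-tdT* mice. In *Pdgfra-tdT* mice they summed to 7.89 to 66.7 and 2.96 to 185 FPKM. After scaling, the fibroblast sums with bleomycin were 230 to 345 in *Acta2-tdT* and 4.76 to 65.9 in *Pdgfra-tdT* mice. Macrophage markers summed to 72.0 to 423 FPKM with saline and 2295 to 10197 with bleomycin in *Acta2-tdT* mice, and to 40.9 to 90.8 and 390 to 3337 FPKM in *Pdgfra-tdT* mice. Neutrophil markers summed to 743 to 1478 and 1162 to 5728 FPKM in *Acta2-tdT* mice, against 21.8 to 46.7 and 9.81 to 147 FPKM in *Pdgfra-tdT* mice.

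In *Acta2-tdT* saline cells, *Lama4* and *Lamb2* led the laminins and were the only members above 1 FPKM in any mouse. *Lama4*, the alpha chain of vessels and their mural cells, was at 2.19, 1.33, 3.41 and 3.67 FPKM in mice 1 to 4, and *Lamb2*, the beta chain of mature vascular and muscle basement membranes, at 2.35, 1.09, 2.95 and 3.83 FPKM. Each of them was higher than the other in 2 of the 4 mice, so their order is not fixed by these data. The next gene, *Lama2*, was lower in all 4 mice, at 0.592 to 0.856 FPKM, and it was followed closely by *Nid1* (0.439 to 0.885), *Lamb1* (0.416 to 0.693) and *Lamc1* (0.322 to 0.550). *Lamc1*, the gamma chain that most laminins share, was thus near the receptor-gene gauge while its alpha and beta partners were well above it. *Hspg2* (0.193 to 0.379), *Agrn* (0.0943 to 0.410), *Lama5* (0.156 to 0.335) and *Nid2* (0.0788 to 0.142) were at or below the gauge in most mice, and a level there cannot be told from no expression.

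**Figure D1:**
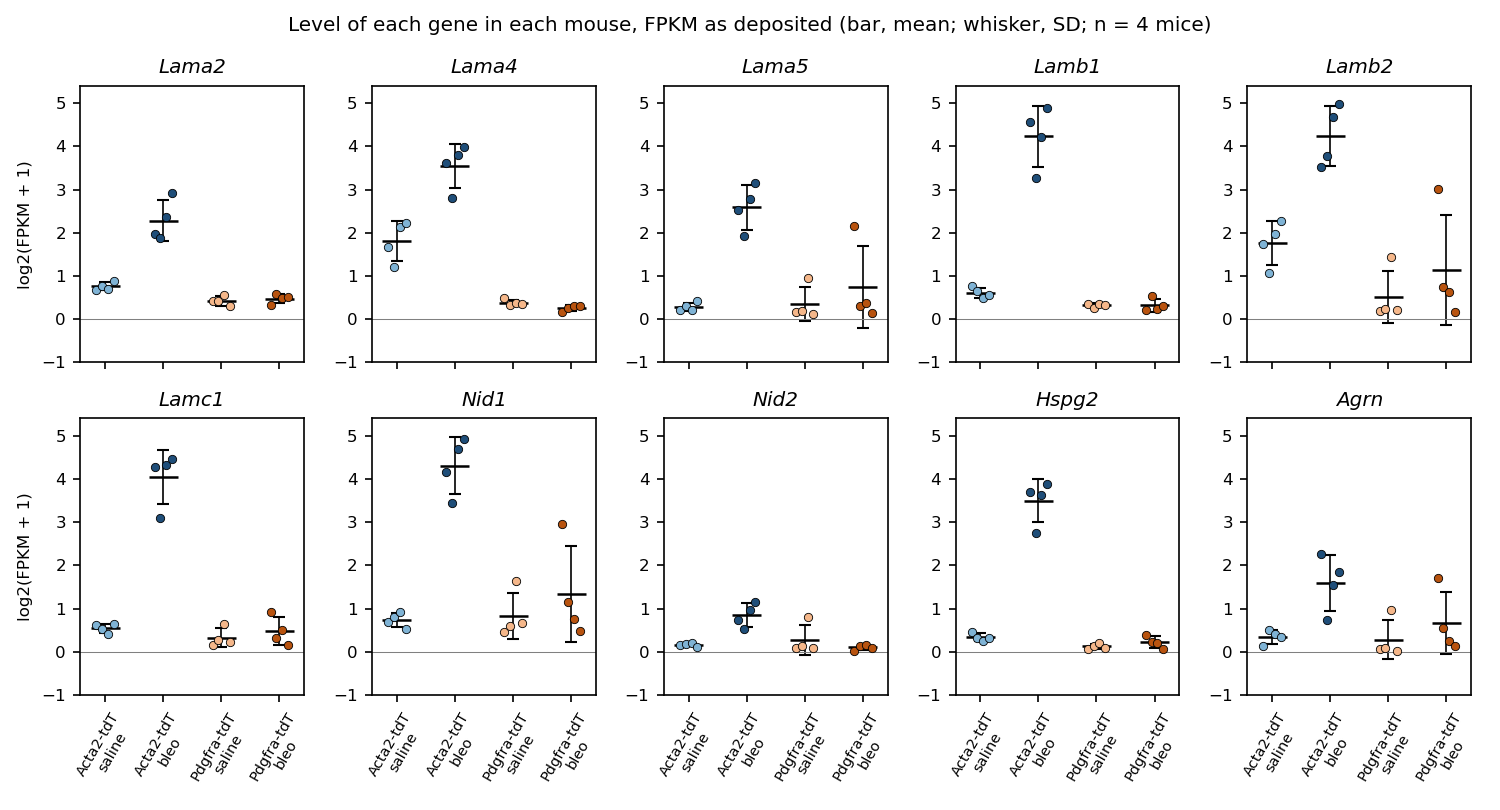
Level of each gene in each mouse as log2(FPKM + 1), as deposited; points are mice, bars are means and whiskers the SD (n = 4 per group). *Acta2-tdT* bleomycin mice lie above the other groups for every gene but *Lama5*, *Nid2* and *Agrn*, where single *Pdgfra-tdT* mice reach their range.

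To ask which members separate the lines without injury, *Acta2-tdT* saline was compared with *Pdgfra-tdT* saline in limma on log2(FPKM + 1), for genes that reached 1 FPKM in 4 or more of the 8 mice. *Lama4* was higher in *Acta2-tdT* cells. Its level in the *Pdgfra-tdT* mice was 0.399, 0.261, 0.294 and 0.281 FPKM, below every *Acta2-tdT* mouse and at the receptor-gene gauge. The difference was 1.43 ± 0.24 (log2, SE; adjusted p = 0.021), and 1.41 ± 0.23 after scaling (adjusted p = 0.0103). For *Lamb2* the *Pdgfra-tdT* values were 0.144, 0.174, 1.70 and 0.160 FPKM, where the value above 1 was that of mouse 3 with its high endothelial markers. The difference of 1.25 ± 0.37 did not pass (adjusted p = 0.162; 1.31 ± 0.30 and 0.0546 after scaling). Without that mouse it was 1.55 both as deposited (adjusted p = 0.00975) and after scaling (0.00276). Only these 2 members passed the filter on low values, and both did so through the *Acta2-tdT* mice, which tilts them toward a difference. Among all 8153 genes tested, 2.72% were called higher in *Acta2-tdT* cells and 0.184% lower (3.20% and 0.221% after scaling), against 1 member higher and none lower. In the same comparison as deposited, all 8 smooth muscle markers were called higher in *Acta2-tdT* cells. So were 3 of the 4 pericyte markers tested and 3 of the 6 neutrophil markers. Of 7 fibroblast markers tested, 1 was called higher and 1 lower. The part of these cell types in the difference of *Lama4* was not tested. The call of *Lama4* was lost (adjusted p = 0.0539 to 0.0885) when any of 6 mice was left out.

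With bleomycin, the basement membrane genes of *Acta2-tdT* cells were read at much higher FPKM. *Lamb1*, the beta chain of most embryonic and many adult laminins, was at 22.6, 8.62, 17.7 and 28.8 FPKM in mice 5 to 8, and *Lamc1* at 18.4, 7.62, 19.1 and 21.0 FPKM. *Nid1* was at 17.0, 9.85, 24.9 and 29.2 FPKM and *Hspg2* at 12.0, 5.77, 11.4 and 13.8 FPKM. No saline mouse overlapped these ranges, and mouse 6 was the lowest of the group for each of these 4 genes. *Lamb2* was at 10.5, 12.7, 24.5 and 30.8 FPKM, *Lama4* at 11.2, 5.98, 12.9 and 14.8, *Lama5* at 4.78, 2.78, 5.85 and 7.91, and *Lama2* at 2.91, 2.70, 4.20 and 6.53 FPKM, again with no overlap with saline. How many of all genes also had no overlap was not counted. *Agrn* (0.667 to 3.81 FPKM) and *Nid2* (0.450 to 1.24 FPKM) had the lowest group means of the 10, although *Agrn* was above *Lama2* in mouse 5. The order of the group means put *Nid1* (20.2 ± 8.57 FPKM, SD, n = 4), *Lamb2* (19.6 ± 9.67) and *Lamb1* (19.4 ± 8.53) first, and their order changed between mice. *Lamc1* (16.5 ± 6.03) was above *Lama4* (11.2 ± 3.79) in each of the 4 mice.

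As deposited, 8 members passed the filter and all 8 rose, from 3.62 ± 0.36 (log2, SE; adjusted p = 1.69e-05) for *Lamb1*, 3.57 ± 0.35 for *Nid1*, 3.50 ± 0.33 for *Lamc1* and 3.16 ± 0.28 for *Hspg2* to 1.52 ± 0.26 for *Lama2* (adjusted p = 0.000282). This count says little of the members, since 70.4% of the 12523 genes tested were called higher and 16.3% lower, and since 6 of the 8 passed the filter through the bleomycin mice alone. Their median difference was 2.82, against 1.76 over all genes tested. *Nid2* and *Agrn* were not tested.

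After scaling, which takes out the rise shared by most genes, the members parted. *Lamb1*, *Lamc1*, *Nid1*, *Hspg2* and *Lama5* rose and *Lama4* fell, whereas *Lamb2* and *Lama2* did not pass the test. The scaled level of *Lamb1* went from 0.631 ± 0.263 to 2.59 ± 0.805 FPKM (SD, n = 4), a log2 difference of 1.13 ± 0.20 (SE; adjusted p = 0.0011). *Lamc1* went from 0.528 ± 0.170 to 2.21 ± 0.498 (1.06 ± 0.16; adjusted p = 0.000407), and *Nid1* from 0.780 ± 0.289 to 2.66 ± 0.421 (1.05 ± 0.18; adjusted p = 0.000745). These are a beta chain, the shared gamma chain and the nidogen that binds it. *Hspg2* went from 0.315 ± 0.144 to 1.46 ± 0.285 (0.90 ± 0.13; adjusted p = 0.000324) and *Lama5*, the alpha chain of epithelial basement membranes, from 0.242 ± 0.0720 to 0.707 ± 0.106 (0.46 ± 0.09; adjusted p = 0.00142). For each of these 5 genes the scaled values of the 4 bleomycin mice lay above those of the 4 saline mice. The share of all genes that separated in this way was not counted. *Lama4* moved the other way, from 1.83 to 3.45 scaled FPKM in saline mice to 1.27 to 1.72 with bleomycin (-0.60 ± 0.19; adjusted p = 0.0209). That call was lost without saline mouse 3 (-0.52; adjusted p = 0.0502), bleomycin mouse 6 (-0.55; 0.0516) or bleomycin mouse 7 (-0.59; 0.0541). *Lamb2*, at 2.72 ± 0.816 and 2.59 ± 0.694 scaled FPKM, differed by -0.04 (95% interval -0.58 to 0.49), and *Lama2* by -0.21 (-0.45 to 0.04). Over all genes 23.9% were called higher and 32.6% lower after scaling, and the median difference was -0.02, against 0.68 over the 8 members. Most of the 8 passed the filter through the bleomycin mice alone, which tilts their median upward. Without the filter the median was 0.22 over all 10 members, against -0.22 over all genes, with *Nid2* at -0.03 and *Agrn* at -0.01.

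Fold changes on this scale understate the change of low genes, since 1 was added to each FPKM. The saline levels of *Hspg2* and *Lama5* were at the receptor-gene gauge, so the size of their rise is not well fixed. Markers of other cells moved in the same samples. After scaling, the summed pericyte markers were 38.1 to 44.3 FPKM with saline and 8.02 to 12.3 with bleomycin. Smooth muscle markers were 447 to 665 and 406 to 628 FPKM in the same order, fibroblast markers 28.7 to 38.4 and 230 to 345, and macrophage markers 99.4 to 360 and 354 to 1150. The pericyte and fibroblast sums thus did not overlap between the groups, in opposite directions. Single markers were mixed. Of 7 pericyte markers tested 1 was called higher and 4 lower, and of 8 smooth muscle markers 2 higher and 3 lower. Of 9 fibroblast markers 8 were called higher, and of 9 macrophage markers 6, with none lower. Endothelial markers were 14.5 to 17.9 and 4.96 to 8.88, and epithelial markers overlapped (63.0 to 797 and 40.3 to 244). Neutrophil markers went from 1021 to 1495 with saline to 131 to 884 with bleomycin, without overlap, and 5 of the 6 were called lower. No marker of the pericyte, fibroblast, macrophage or neutrophil lists was at 0 in all mice of either group. Their part in the changes of *Lama4* and of the 5 genes that rose was not tested.

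**Figure D2:**
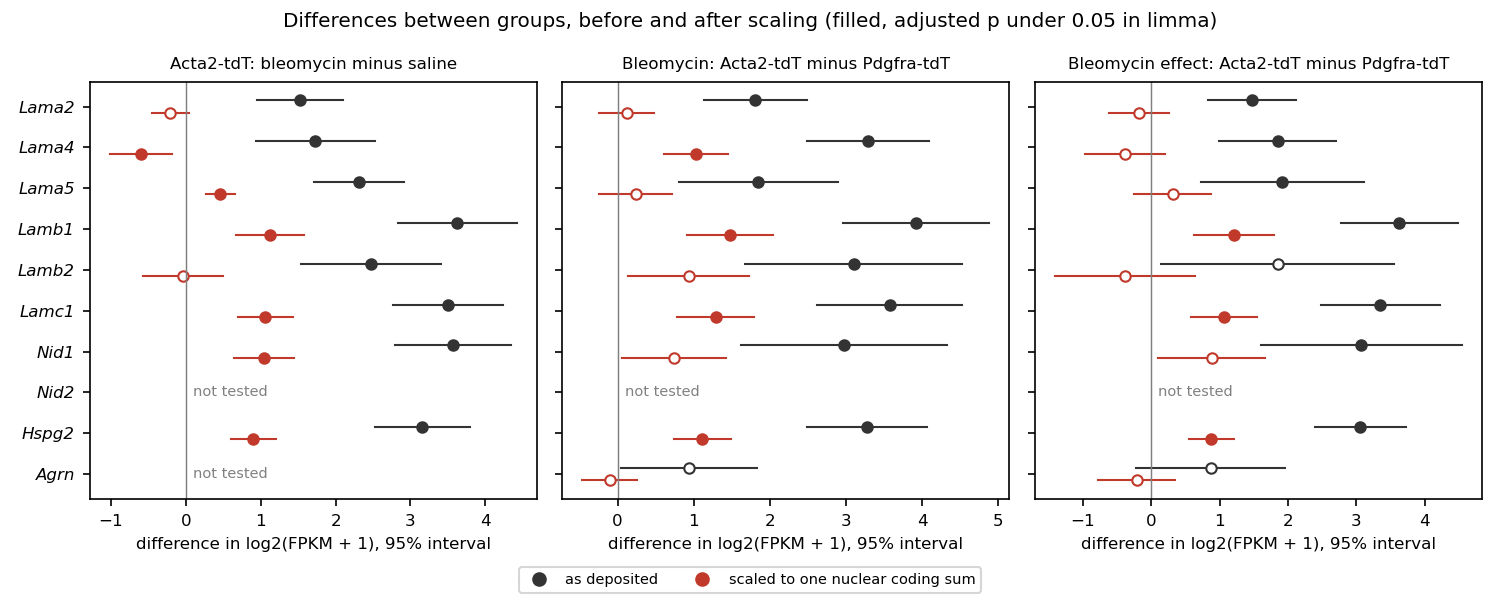
Difference in log2(FPKM + 1) with its 95% interval for bleomycin against saline in *Acta2-tdT* mice, for *Acta2-tdT* against *Pdgfra-tdT* mice with bleomycin, and for the difference between the lines in the effect of bleomycin; black, as deposited; red, after scaling to the same nuclear coding sum; filled, adjusted p under 0.05 in limma. In the *Acta2-tdT* mice the deposited values of the 8 tested genes lie between 1.52 and 3.62, and the scaled ones between -0.60 for *Lama4* and 1.13 for *Lamb1*.

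The composition of the set within a mouse needs no scaling, because it compares genes in the same library. The share of *Lamb1* in *Lamb1* and *Lamb2* together was 22.7, 34.2, 12.4 and 10.9% in the *Acta2-tdT* saline mice and 68.3, 40.4, 42.0 and 48.4% in the bleomycin mice. The groups did not overlap, and the mean went from 20.1% to 49.8% (exact two-sided permutation test over 70 labellings, p = 0.0286, the smallest that 4 against 4 mice can give; 0.0980 after adjustment over 24 tests). *Lama5* made up 5.29, 10.1, 3.73 and 6.88% of the 3 alpha chains with saline and 25.4, 24.3, 25.5 and 27.0% with bleomycin, also without overlap (permutation p = 0.0286, adjusted 0.0980). The 4 bleomycin mice were close to each other in this share, although their *Lama5* levels ranged from 2.78 to 7.91 FPKM. *Lama4* went from a mean of 72.4% to 54.5% of the alpha chains (permutation p = 0.0571, adjusted 0.137), with 1 saline mouse (58.4%) inside the bleomycin range of 50.6 to 59.2%, and *Lama2* made up 21.1% and 19.9% (p = 0.857 in the permutation test). *Nid1* made up 84.0 to 86.1% of the nidogens with saline and 95.6 to 96.3% with bleomycin (permutation p = 0.0286, adjusted 0.0980). *Hspg2* went from a mean of 50.7% to 83.9% of the 2 proteoglycans (permutation p = 0.0571, adjusted 0.137), where saline mouse 1 (80.1%) lay inside the bleomycin range of 76.0 to 89.6%. With 24 shares tested, no adjusted p was under 0.05, and the saline shares of *Lama5*, *Nid2*, *Hspg2* and *Agrn* rest on FPKM at or under the receptor-gene gauge. The saline levels behind the share of *Lamb1* were above it.

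**Figure D3:**
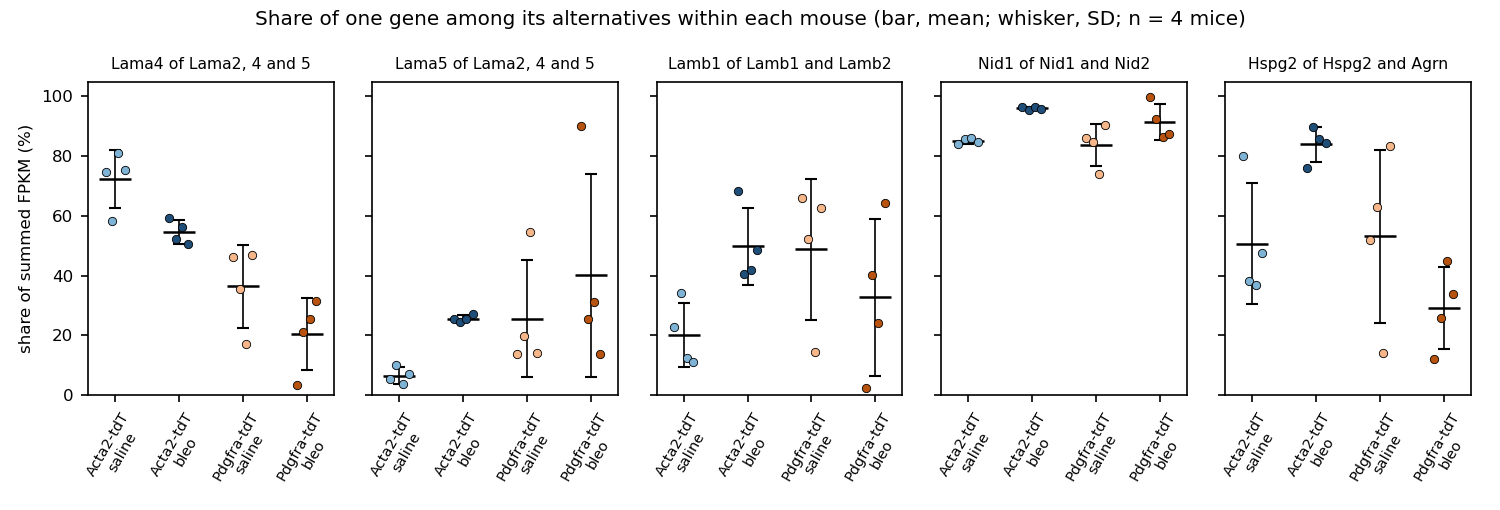
Share of one gene in the summed FPKM of its alternatives within each mouse, in percent; points are mice, bars are means and whiskers the SD (n = 4 per group). In *Acta2-tdT* mice the shares of *Lama5*, *Lamb1* and *Nid1* with bleomycin lie above all saline values, and the *Pdgfra-tdT* shares spread widely at levels near the receptor-gene gauge.

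The bases before the starts of the beta chains, whose shares did not overlap between saline and bleomycin in *Acta2-tdT* cells, are shown, with those of 3 other members that rose after scaling. The sequences were taken from RefSeq (GRCm38.p6), where 7 of the 10 members had one; *Lama4*, *Lamc1* and *Nid2* had none there. They run 5′ to 3′ in the direction of the gene, end before the first exon of the GENCODE annotation, and carry in capitals the letters GGGCGG (the GC box, bound by SP1-family factors) and CCAAT on either strand.
*Lamb1*, chr12:31265043-31265233, plus strand: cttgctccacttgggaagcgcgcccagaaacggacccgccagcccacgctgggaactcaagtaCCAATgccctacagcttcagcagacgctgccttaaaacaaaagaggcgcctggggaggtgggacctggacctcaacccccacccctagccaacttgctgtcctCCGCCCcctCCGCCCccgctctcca
*Lamb2*, chr9:108479612-108479735, plus strand: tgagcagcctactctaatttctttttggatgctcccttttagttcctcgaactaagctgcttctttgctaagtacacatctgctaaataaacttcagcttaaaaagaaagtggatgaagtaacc
*Nid1*, chr13:13437352-13437550, plus strand: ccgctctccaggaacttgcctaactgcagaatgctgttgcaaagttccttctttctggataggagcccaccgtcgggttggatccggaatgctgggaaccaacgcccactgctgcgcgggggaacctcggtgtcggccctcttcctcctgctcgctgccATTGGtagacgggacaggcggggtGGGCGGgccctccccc
*Hspg2*, chr4:137468569-137468768, plus strand: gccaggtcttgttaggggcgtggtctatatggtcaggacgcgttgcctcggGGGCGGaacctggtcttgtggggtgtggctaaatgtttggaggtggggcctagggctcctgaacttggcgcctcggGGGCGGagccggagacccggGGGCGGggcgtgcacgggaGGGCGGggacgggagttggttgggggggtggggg
*Lama5*, chr2:180225860-180226059, minus strand: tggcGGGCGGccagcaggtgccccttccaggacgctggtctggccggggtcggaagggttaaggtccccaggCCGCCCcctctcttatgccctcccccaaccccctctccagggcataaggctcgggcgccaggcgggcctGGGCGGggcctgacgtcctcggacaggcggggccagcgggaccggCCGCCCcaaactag
In the 250 bases before the RefSeq start, *Lamb1* had 2 GC boxes and 1 CCAAT, *Nid1* 1 of each, *Hspg2* 5 GC boxes and *Lama5* 4, whereas *Lamb2* and *Lama2* had no match to either motif. *Agrn* had 12 and 2 GC boxes before its 2 RefSeq starts. The shown run was 63.9% G and C for *Lamb1* and 37.9% for *Lamb2*. Of all 32851 promoters of that length, 32.7% held GGGCGG and 33.8% CCAAT. The AP-1 letters TGANTCA, in 6.75% of promoters, and the TATA box letters TATAAA, in 12.4%, were found before none of the 7 members. A match of letters describes the window and not the binding of a factor.

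The genes lie apart in the genome (GRCm38, coordinates as in the tables, counted from 1). *Lamb1* spans chr12:31265234-31329644 and *Lamb2* chr9:108479857-108490530. *Lamc1* is at chr1:153218922-153332786, *Nid1* at chr13:13437602-13512275 and *Hspg2* at chr4:137468769-137570630. *Lama4* and *Lama2* are both on chromosome 10, at 38965515 to 39110188 and 26981285 to 27616843. Levels were computed over exons. Exons of *Lama2*, *Nid1* and *Nid2* share 631, 143 and 437 bases with a gene of the opposite strand in GENCODE, and SmartSeq2 libraries do not mark strand, so reads from such bases cannot be assigned to either gene.

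With bleomycin in both lines, 9 members were tested between *Acta2-tdT* and *Pdgfra-tdT* cells, and as deposited 8 were higher in *Acta2-tdT* cells, against 71.0% of the 11995 genes tested (8.61% were lower). After scaling 4 were higher, *Lamb1*, *Lamc1*, *Hspg2* and *Lama4*, against 15.8% of all genes (17.6% lower), and no member was lower. Of the 9 members 8 met the filter in the 4 *Acta2-tdT* bleomycin mice alone, and *Agrn* met it in 3 of them and 1 *Pdgfra-tdT* mouse, which tilts these counts toward higher. *Lamb1* was at 0.158, 0.453, 0.175 and 0.229 FPKM in the *Pdgfra-tdT* bleomycin mice 5 to 8, and *Lama4* at 0.131, 0.194, 0.239 and 0.239 FPKM. Both were around or below the receptor-gene gauge there, so that these differences set expressed genes against genes that were not readable. They came to 3.92 ± 0.44 for *Lamb1* (log2, SE; adjusted p = 6.83e-05) and 3.28 ± 0.37 for *Lama4*, and after scaling to 1.48 ± 0.26 (adjusted p = 0.00392) and 1.03 ± 0.19 (0.00435). *Lamc1* differed by 1.29 ± 0.23 and *Hspg2* by 1.11 ± 0.17 after scaling (adjusted p = 0.00403 and 0.00235). *Lama4* was thus called higher in *Acta2-tdT* cells with either agent. With saline it was tested through the *Acta2-tdT* mice alone, and as deposited that call was lost when any of most single mice was left out. In the scaled fit with bleomycin, 8 of 8 smooth muscle and 7 of 9 fibroblast markers tested were called higher in *Acta2-tdT* cells. Of 8 endothelial markers tested, 7 were called lower. The part of these cell types in the differences of the members was not tested.

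The scaled results for *Nid1*, *Lamb2* and *Lama5* changed with 1 mouse. In *Pdgfra-tdT* bleomycin mouse 5 *Nid1*, *Lamb2*, *Lama5* and *Agrn* were at 6.72, 7.11, 3.50 and 2.25 FPKM. In mice 6 to 8 *Nid1* was at 1.22, 0.686 and 0.393, *Lamb2* at 0.674, 0.549 and 0.127, *Lama5* at 0.236, 0.292 and 0.104, and *Agrn* at 0.463, 0.194 and 0.0962 FPKM. With mouse 5, the scaled differences between the lines were 0.74 ± 0.31 for *Nid1* (adjusted p = 0.0861), 0.93 ± 0.36 for *Lamb2* (0.0677), 0.24 ± 0.22 for *Lama5* (0.409) and -0.10 ± 0.16 for *Agrn* (0.63). Without it, the first 3 were 0.95 (adjusted p = 0.00844), 1.24 (0.00306) and 0.45 (0.0142) and passed, so that 7 members were higher in place of 4. *Agrn* as deposited went from 0.93 (adjusted p = 0.0518) to 1.28 (0.00507), and it also passed without *Acta2-tdT* bleomycin mouse 6 (1.22; 0.0187). *Lama2* was at 0.12 (95% interval -0.24 to 0.48) after scaling.

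Between saline and bleomycin in *Pdgfra-tdT* cells no member reached 1 FPKM in 4 mice, so none was tested. Over the 7275 genes tested, limma called 0.0275% higher and 0.0962% lower (0.0275% and 0.110% after scaling), which is 9 genes as deposited, and 312 had an unadjusted p under 0.05. In a fit without the filter, the differences of the 10 members ran from -0.17 for *Nid2* to 0.62 for *Lamb2* as deposited, none of them called, with adjusted p of 0.841 to 0.99. The intervals were wide for *Lamb2* (-0.80 to 2.04) and *Nid1* (-0.79 to 1.79). Both genes were far higher in saline mouse 3 and bleomycin mouse 5 than in the other mice of their groups. For genes near the gauge the intervals were narrow (*Lamb1*, -0.31 to 0.29). As deposited, saline mouse 3 and bleomycin mouse 5 were both the highest of their groups for *Nid1*, *Lamb2*, *Agrn*, *Lama5*, *Lamc1* and *Hspg2*. They also had the highest nuclear protein-coding sums of their groups, 59840 and 137952. After scaling, both stayed highest for *Nid1*, *Lamb2*, *Agrn* and *Lama5*. *Lamc1* then stayed highest in saline mouse 3 but not in bleomycin mouse 5 (0.313, against 0.475 in mouse 7). *Hspg2* was then highest in neither. *Nid2* was highest in saline mouse 3 but lowest in bleomycin mouse 5 (0.0192 FPKM). In saline mouse 3 *Nid1* was at 2.09, *Lamb2* at 1.70, *Agrn* at 0.954, *Lama5* at 0.938 and *Nid2* at 0.735 FPKM, against 0.377 to 0.579, 0.144 to 0.174, 0.0132 to 0.0584, 0.0850 to 0.144 and 0.0613 to 0.0909 FPKM in the other 3.

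Endothelial markers were high in these 2 mice. None of the 10 markers was at 0 in all mice of a *Pdgfra-tdT* group, and *Cldn5*, the tight junction claudin of endothelium and the highest of them, reached 246 FPKM with saline and 741 FPKM with bleomycin, against 2.65 and 2.43 FPKM in the lowest mice. As deposited, saline mouse 3 and bleomycin mice 5, 6 and 7 had higher endothelial sums than the other mice of the line. They also had more *Nid1*, *Lamb2*, *Lama5* and *Agrn*. Among the other mice, saline mouse 1 had the highest endothelial sum (15.4) but the lowest *Nid1* (0.377 FPKM). *Lama5* was lower in bleomycin mouse 6 (0.236 FPKM) than in mouse 7 (0.292 FPKM). Bleomycin mouse 6 (156) and mouse 7 (51.6) came next after the 2 high mice in summed marker FPKM, and in *Nid1*, *Lamb2* and *Agrn* they followed in the same order. After scaling this order held for *Lamb2* and *Agrn*, whereas *Nid1* in mouse 7 (0.792) was below that in saline mouse 2 (0.830). *Lama4*, *Lamb1* and *Lama2* were at 0.131, 0.158 and 0.259 FPKM in bleomycin mouse 5, the lowest of its group for each. In saline mouse 3 they were at 0.294, 0.288 and 0.483 FPKM, where *Lamb1* and *Lama2* were the highest of their group, against 0.192 to 0.278 and 0.231 to 0.346 FPKM in the other mice. After scaling, *Lama4* and *Lamb1* were the lowest of that group in saline mouse 3 (0.241 and 0.237 FPKM). Basement membrane collagens were high in the same 2 mice, with a sum of 17.7 FPKM in saline mouse 3 and 107 in bleomycin mouse 5 against 1.42 to 12.3 in the other 6, and so were fibroblast markers, up to 66.7 and 185 FPKM. The part of endothelial RNA in the levels of the members was not tested.

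**Figure D4:**
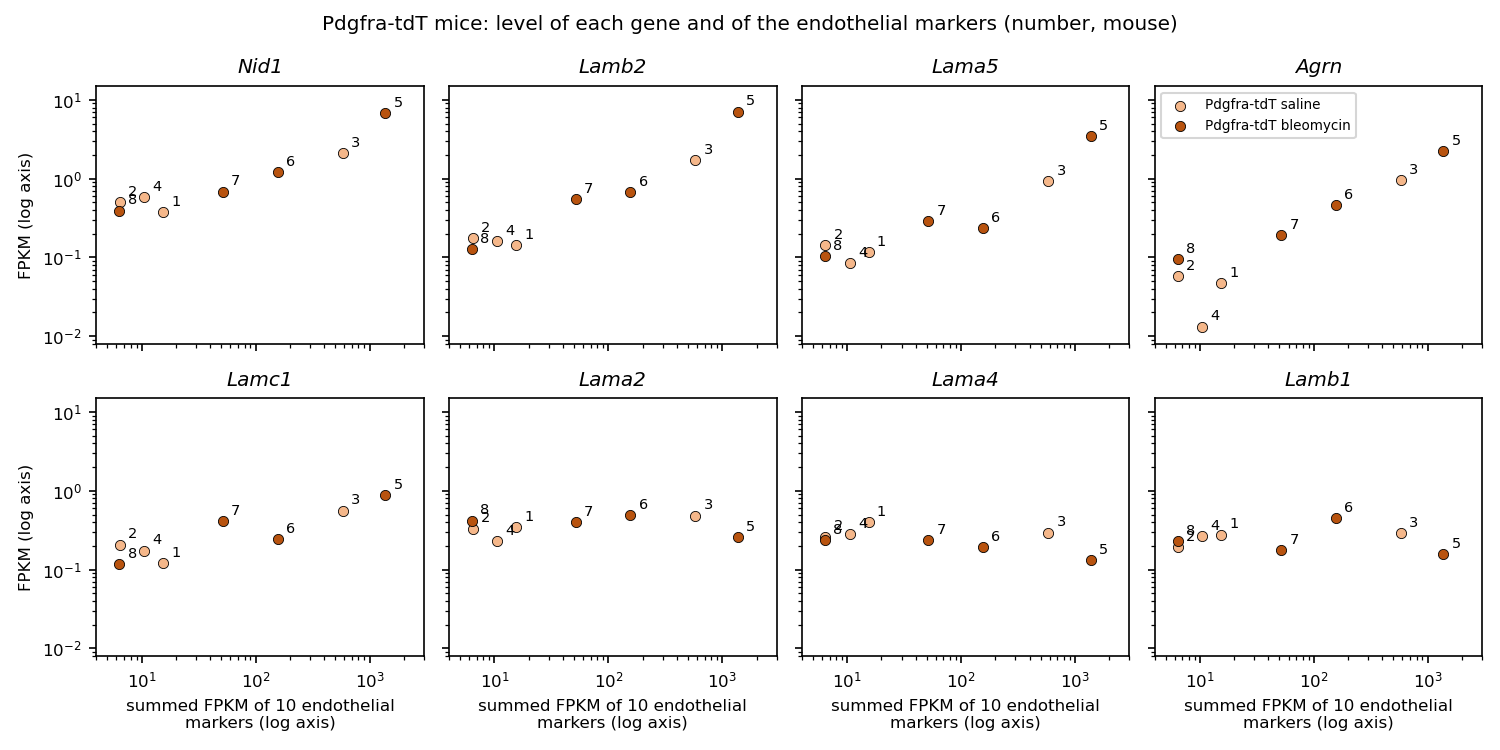
FPKM of 8 genes against the summed FPKM of 10 endothelial markers in the 8 *Pdgfra-tdT* mice, both as deposited and on log axes. Numbers are mice. *Nid1*, *Lamb2*, *Lama5*, *Agrn* and *Lamc1* are highest in saline mouse 3 and bleomycin mouse 5, and *Lama2*, *Lama4* and *Lamb1* are lowest of their group in bleomycin mouse 5.

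Whether bleomycin acted differently in the lines was tested as the interaction of line and treatment over all 16 mice, with 9 members tested. As deposited, 7 had a larger rise in *Acta2-tdT* cells, against 36.6% of the 16605 genes tested (3.20% in the other direction), with *Lamb1* at 3.63 ± 0.40 (log2, SE), *Lamc1* at 3.35 ± 0.41, *Nid1* at 3.07 ± 0.69 and *Hspg2* at 3.06 ± 0.31. *Lamb1*, *Lamc1*, *Hspg2* and *Lama2* reached 1 FPKM in no mouse outside the *Acta2-tdT* bleomycin group, so that the filter tilts these counts toward a larger rise there. After scaling 3 remained called, *Hspg2* (0.88 ± 0.15; adjusted p = 0.00746), *Lamc1* (1.06 ± 0.22; 0.0227) and *Lamb1* (1.21 ± 0.27; 0.0323), against 1.33% of all genes higher and 0.891% lower. The difference for *Hspg2* passed whichever mouse was left out. *Lamb1* lost its call in 9 and *Lamc1* in 4 of the 16 fits that left out 1 mouse, with values of 1.09 to 1.31 and 0.97 to 1.16. For *Lama4* the interaction was 1.85 as deposited and -0.39 (95% interval -0.97 to 0.20) after scaling. *Lamb2* missed the threshold as deposited (1.85 ± 0.80; adjusted p = 0.0755) and passed without bleomycin mouse 5 of the *Pdgfra-tdT* line (2.48; 0.00317). After scaling and without both endothelial-rich mice, 5 members were called, with *Nid1* (0.94; adjusted p = 0.0266) and *Lama5* (0.38; 0.0449) added; leaving these mice out was decided after the data had been seen.

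Other basement membrane genes in *Acta2-tdT* cells were read from the same fit of bleomycin against saline. The counts of each list stand against the shares of all genes in that fit, 70.4% higher as deposited and 23.9% higher and 32.6% lower after scaling. Of 8 basement membrane collagens 4 were tested, and all 4 rose both as deposited and after scaling. The filter tilts such counts toward higher. *Col15a1* and the linker *Fbln2*, for example, were at no more than 0.132 and 0.757 FPKM with saline and passed through the bleomycin mice alone. *Col4a3* and *Col4a4*, which were not tested, had means of 0.180 and 0.225 FPKM with saline and 0.146 and 0.180 with bleomycin. *Col4a1* and *Col4a2*, the chains of the common collagen IV trimer, went from 1.39 ± 0.342 and 1.93 ± 0.366 to 48.4 ± 20.9 and 93.6 ± 46.1 FPKM (SD, n = 4). After scaling they rose by 1.51 ± 0.22 and 2.0 ± 0.28 (log2, SE; adjusted p = 0.0003 and 0.000238 in limma). *Col18a1*, the source of endostatin, rose by 0.56 ± 0.20 (adjusted p = 0.0342). Of 15 linkers and crosslinkers 9 were tested, and all 9 rose as deposited and 6 after scaling, with 1 lower (*Egflam*, which links matrix to dystroglycan, -0.42 ± 0.14). *Sparc*, which binds collagen IV, rose by 2.80 ± 0.27, *Fbln2*, which binds laminin and nidogen, by 3.18 ± 0.24, and *Fbln1*, another fibulin, by 0.69 ± 0.23 after scaling. Of 11 proteases and related enzymes 10 were tested, with 10 higher as deposited and 7 after scaling. The cathepsins *Ctsb* and *Ctsl* rose by 1.95 ± 0.40 and 1.08 ± 0.37 after scaling, and *Mmp14*, a membrane-bound metalloproteinase, by 2.70 ± 0.23. In the same scaled fit 6 of 9 macrophage and 8 of 9 fibroblast markers were called higher. The part of these cells in the changes of the listed genes was not tested.

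Of the 17 receptors 11 were tested, and all 11 rose as deposited, but after scaling 3 were higher and 2 lower, of which the 3 are near the share of all genes called higher (23.9%). Several, such as *Dag1* (0.376 to 0.960 FPKM with saline), passed the filter through the bleomycin mice alone. *Itgb1*, the integrin subunit common to most laminin receptors, rose by 1.59 ± 0.24 (adjusted p = 0.000318), with *Dag1*, dystroglycan (0.46 ± 0.16; 0.0348), and *Sgcb*, a sarcoglycan (0.26 ± 0.10; 0.0449). The 2 that fell were *Itga1* (-0.39 ± 0.14; 0.043) and *Itga8* (-0.33 ± 0.10; 0.0211), alpha subunits that pair with *Itgb1*. *Bcam*, a receptor for laminins with *Lama5*, differed by -0.40 (95% interval -0.88 to 0.08) while *Lama5* itself rose, and *Sgce*, another sarcoglycan, by 0.04 (-0.50 to 0.58). None of the 5 other laminin chains was tested.

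Across the 16 mice, by Pearson correlation of scaled log2(FPKM + 1), the member most like *Lamc1* was *Hspg2* (0.99). Among 10355 protein-coding genes other than members, those most like it were *Chpf*, a chondroitin polymerizing factor (0.984), the chemokine *Cxcl14* (0.981), the receptor-like *Ptk7* (0.977), and the collagen chains *Col6a3* (0.970) and *Col7a1* (0.969). The mice share their groups, so this likeness includes the step between *Acta2-tdT* bleomycin mice and the rest, and the part of that step was not measured. *Lamc1* and *Hspg2* correlated at 0.993 within *Acta2-tdT* mice. Within *Pdgfra-tdT* mice, where both were near or below the receptor-gene gauge in most mice, they correlated at 0.682.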

How the data were processed

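RNA of sorted tdTomato-positive lung cells (SmartSeq2) was measured in 16 mice. Per the labels and the study's methods, the authors aligned reads with TopHat2 2.1.1 and Bowtie2 to GRCm38 (mm10) and computed FPKM per gene and mouse with Cufflinks 2.1.1. The deposited values are these FPKM, not scaled between mice, with no counts, so depth is unknown; the interval that Cufflinks gives for each value was not used in the tests. Rows of 1 Ensembl gene were summed (49534 rows, 49452 genes), and 15 genes without a complete Cufflinks status were left out. Groups followed the labels.

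Comparisons were made with limma 3.58.1 in R 4.3.3 (lmFit, eBayes with trend) on log2(FPKM + 1), for genes that reached 1 FPKM in 4 or more mice of the fit, with Benjamini-Hochberg adjustment over all genes tested and a threshold of 0.05. Scaling brought each mouse to the same sum over 21950 nuclear protein-coding genes. Shares were compared by exact permutation. The procedure was tested on simulated data. Tables were handled with Python 3.11.15, pandas 2.3.3 and SciPy 1.17.1. Same-numbered mice of the lines did not deviate together (correlations of -0.307 to 0.157), so the numbers were not taken to pair them. Members and lists were chosen with earlier results of these data known. All 10 members are named; of the pathway lists, the 3 genes with the highest mean FPKM, and after their values were seen the receptors that changed after scaling and the linker that fell. Alternatives were quantile normalization, a pseudocount of 0.1, sample weights, no filter or one at a mean FPKM of 5, the replicate number as a block and leaving out mice; those run after scaling, and the pair of mice left out, were added after the data were seen.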

Additional observations from a re-analysis of the deposited data

Results flagged for a closer look

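In 40 groups of FPKM and 24 groups of shares, the gap of the highest or lowest mouse to the others was large for its group of 4 in 8 cases, where chance gives about 1 in 20 groups. *Pdgfra-tdT* saline mouse 3 accounted for 6 of them, with *Nid1* at 2.09, *Lamb2* at 1.70, *Agrn* at 0.954, *Lama5* at 0.938 and *Nid2* at 0.735 FPKM and a *Lama5* share of 54.7% of the alpha chains (13.6 to 19.6% in the other 3 mice). *Lama5* in *Pdgfra-tdT* bleomycin mouse 5 was at 3.50 FPKM (others 0.104 to 0.292), and *Lamc1* in *Acta2-tdT* bleomycin mouse 6 was at 7.62 FPKM (others 18.4 to 21.0). The first 2 mice had the highest endothelial marker sums of their line, 580 and 1372 FPKM.

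The effect of bleomycin differed between the lines, by the interaction in limma on deposited values, for *Lamb1* (3.63), *Lamc1* (3.35), *Nid1* (3.07), *Hspg2* (3.06), *Lama5* (1.92), *Lama4* (1.85) and *Lama2* (1.47, log2), against 36.6% of all genes in this direction. After scaling only *Lamb1*, *Lamc1* and *Hspg2* stayed called, and *Lama4* (-0.39) and *Lama2* (-0.18) turned direction. *Lamb1*, *Lamc1*, *Hspg2* and *Lama2* passed the filter through the *Acta2-tdT* bleomycin mice alone.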

How the results depend on the processing

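With saline, the count of members higher in *Acta2-tdT* cells (1) was 0 under quantile normalization, 0 without a filter, 2 with sample weights and 0 with the replicate block; after scaling it was 0 with the replicate block, 0 without a filter and 2 with sample weights, and without 1 mouse it ran from 0 to 2, both as deposited and after scaling (2 without *Pdgfra-tdT* saline mouse 3). With bleomycin the 8 members called became 4 after scaling and 5 under quantile normalization, and after scaling the count without 1 mouse ran from 4 to 7. For bleomycin in *Acta2-tdT* mice the 8 became 5 under quantile normalization. For the interaction the 7 became 3 after scaling, 4 under quantile normalization and 2 with a mean FPKM of at least 5, where 3 members were tested, and it was 8 without a filter and 9 with sample weights; after scaling the 3 became 5 without both endothelial-rich mice, 1 without a filter and 1 to 4 without 1 mouse (1 without *Acta2-tdT* saline mouse 3).

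Direction turned for *Lama2* (-0.21), *Lama4* (-0.60) and *Lamb2* (-0.04) after scaling and for *Lama4* under quantile normalization (-0.31) in the effect of bleomycin in *Acta2-tdT* mice, and for *Lama2* (-0.18), *Lama4* (-0.39), *Lamb2* (-0.38) and *Agrn* (-0.21) after scaling and *Lamb2* under quantile normalization (-0.05) in the interaction. Between the lines with bleomycin it turned for *Agrn* after scaling (-0.10) and under quantile normalization (-0.20). After scaling, values near 0 changed sign without 1 mouse, from -0.01 to 0.21 for *Lama2* and -0.20 to 0.02 for *Agrn* between the lines with bleomycin and from -0.22 to 0.10 for *Lamb2* in *Acta2-tdT* mice (0.03 with sample weights), none of them called. Of the other fold changes, 424 kept direction and side of the threshold, 24 fell short and 12 passed; after scaling these were 361, 22 and 11. Differences in share, in percentage points, that changed sign without 1 mouse were those of *Lama2* in *Acta2-tdT* (-3.18 to 2.28) and *Pdgfra-tdT* mice (-3.58 to 12.5), *Lama5* between the lines with bleomycin (-23.4 to 2.08) and in *Pdgfra-tdT* mice (-2.06 to 24.3), *Nid1* between the lines with saline (-1.86 to 3.60) and *Hspg2* there (-15.4 to 7.64, and 3.86 with 0.1 FPKM added). Over all genes, the 237 called between the lines with saline became 36 with the replicate block, 2715 with sample weights, 59 without a filter and 88 to 2397 without 1 mouse. The 9 called for bleomycin in *Pdgfra-tdT* mice became 548 with sample weights and 2 without a filter, and 6 to 73 without 1 mouse. With bleomycin, the replicate block called 9 members between the lines as deposited, *Agrn* added (adjusted p = 0.0236), and 4 after scaling. The causes of these changes were not tested. FPKM near the receptor-gene gauge limit what *Pdgfra-tdT* mice can show.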

Other observations

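*Lama1*, a laminin alpha chain of embryonic basement membranes and outside the set, was below 1 FPKM in 15 of the 16 mice. It was listed at 0 to 0.321 FPKM in *Acta2-tdT* bleomycin mice and at 0.0794 to 2.13 FPKM (0.730 ± 0.949, SD, n = 4) in *Pdgfra-tdT* bleomycin mice, where 2.13 was the value of mouse 5 with its high endothelial markers and the other 3 were at 0.0794 to 0.529 FPKM (0.265 ± 0.235, SD, n = 3), against 0.104 to 0.144 FPKM in *Pdgfra-tdT* saline mice. It did not pass the filter on low values and was not tested.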
